A study of Mus musculus with 27 samples.

Results

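The genes described here are the complement, coagulation and fibrinolysis factors on a list of 37, followed across the livers of 27 mice. They were chosen by name, from the annotation of the array, with earlier results of these data known. A named probe was found for 31 of the 37. C4b was measured only by probes that the annotation gives to both C4a and C4b, which left 30 genes with a probe of their own. All 30 passed the filter on dim probes, out of 5200 genes tested and 8252 on the array with a probe of their own. C3, C6, C8a, C8b, Cfd and F11 were not analysed here.

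Liver RNA was hybridised to Affymetrix one-colour arrays, 1 mouse liver per array. The mice fall into 3 groups of 9, which the labels call Con, Veh and Dex and do not spell out. The sources used here do not give strain, sex, age, agent, dose or time, or what the groups share, so the names are used as they stand. Mice are named by group and number (Dex 2). The replicates are separate mice, but these are whole livers, in which fewer cells of a type and less RNA per cell cannot be told apart.

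Complement and coagulation are plasma cascades of proenzymes, cofactors and inhibitors, most of them secreted by hepatocytes. In complement, the lectin pathway (mannose-binding lectins with the MASP proteases) and the classical pathway both cut C4 and C2 to form the C3 convertase, the alternative pathway uses factor B, and the terminal components build the membrane attack complex. In coagulation, the contact proteases and the vitamin K dependent factors lead to thrombin, which turns fibrinogen into fibrin, factor XIII crosslinks it, and plasmin, made from plasminogen, dissolves it. Several of these genes belong to the acute phase response of the liver, and fibrinogen is a textbook example.

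Of the 27 arrays, the dimmest had a median intensity of 17.6 and the brightest 33.3, and Spearman correlations between arrays ran from 0.833 to 0.937. For beta-actin, the 3' control probe over the 5' one (log2), a measure that goes up with shortened RNA, gave 0.947 ± 0.243 for the Con mice, 1.27 ± 0.318 for Veh and 0.886 ± 0.169 for Dex (SD, n = 9 per group). Among marker lists, 3 of 5 tested hepatocyte genes were higher in Dex than in Con (Alb, Apoa1 and Tat), with summed intensities of 39295 to 73959 in Con, 39260 to 89073 in Veh and 45000 to 113810 in Dex. Of 10 tested macrophage and Kupffer cell genes, 3 were lower in Dex than in Con (Cd5l, Mrc1 and Ctss), with sums of 1080 to 2039, 981.7 to 3425 and 664.6 to 1787. On the same list C1qc (0.33) and Cd14 (0.18) were higher in sign without passing, and the others were lower in sign. Of 3 tested endothelial genes, Cdh5 was lower, with list sums of 119.7 to 181.1, 113.1 to 191.2 and 78.8 to 168.6. Their median sums were 132.1, 134.8 and 137, and Kdr (-0.43) and Pecam1 (0.38) differed in sign without passing. The marker counts in Dex against Con stand beside 16.9% of all genes that passed there. No gene passed the test in any comparison among the tested genes of the adipocyte, platelet, neutrophil, stellate cell and pancreas lists (1, 1, 1, 3 and 2 genes). The bile duct list had no tested gene, and its marker Krt19 was at or under the floor. Of the marker genes that passed in Dex against Con, only Tat and Mrc1 still passed after quantile normalization, and Alb changed by 0.010. The other marker genes are not given for that scaling. The part of these differences in the results was not tested.

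Against Con, 9 of the 30 genes differed in Dex, 7 lower and 2 higher, and 2 differed in Veh, 1 in each direction. The genes lower in Dex than in Con were Masp1 and Mbl1 of the lectin pathway, C2, the contact protease gene Klkb1, the cofactor F5, the anticoagulant Pros1 and the factor XIII subunit F13b. Those higher were F7 and Plg. In Veh, Masp1 was lower and Serpinf2, the inhibitor of plasmin, was higher than in Con. Between Dex and Veh no gene on the list passed the threshold (0 of 30, lowest adjusted p = 0.0762). All changes are log2 values, first group minus second, with standard errors of the limma fit over all 27 arrays, and passing means an adjusted p under 0.05.

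These counts are read against all 5200 tested genes. In Dex against Con, 16.9% of all genes passed, as did 9 of the 30. For Veh against Con 3.56% passed, as did 2 of the 30. For Dex against Veh 0.231% passed, as did none of the 30. The 3 comparisons share arrays, so their calls are not independent.

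At an unadjusted p under 0.05, Dex against Veh gave 10 lower and 0 higher genes on the list (33.3% and 0%), beside 9.15% lower and 6.5% higher of all genes. In sign, 24 of the 30 were lower in Dex than in Veh and 6 higher, with a median change of -0.19, where 56.1% of all genes were lower and their median was -0.05. With the 3' over 5' beta-actin covariate the split was 19 lower and 11 higher, with a median of -0.12 (all genes -0.07). Veh against Con gave 7 lower and 5 higher at the unadjusted level, beside 17.4% lower and 5.62% higher of all genes. Dex against Con gave 10 lower and 4 higher, beside 25.5% and 6.69%. The median change of the list was 0.06 in Veh against Con (16 higher, 14 lower; all genes -0.18) and -0.17 in Dex against Con (13 higher, 17 lower; all genes -0.21). However, 25 of the 30 genes were in the brightest class by mean intensity, where the medians of all genes were 0.12 and 0.07.

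The scaling between arrays moves these splits. Quantile normalization shifted the median of all genes from -0.18 to -0.01 in Veh against Con and from -0.21 to -0.05 in Dex against Con. Over all probes, the calls went from 81 higher and 181 lower to 44 and 42 in Veh against Con, and from 221 and 894 to 198 and 464 in Dex against Con. Of the 30 genes, 11 turned sign in Dex against Con, all from higher to lower: Plg, Kng1, Serpinc1, Vtn, C8g, Fgg, F2, Proc, Serpinf2, Serpind1 and F10. On the list, Veh against Con went to 10 higher and 20 lower in sign, with F9 as the only call (-0.52, lower, adjusted p = 0.0451). Dex against Con went to 2 higher and 28 lower in sign, with 11 genes called lower and 0 called higher. Masp1, C2, Klkb1, F13b and F5 were called lower under both scalings, while the calls of Mbl1, Pros1, F7 and Plg were made only with the deposited scaling, and those of C9, Fgb, F9, Cfi, C4bp and Serping1 only after quantile normalization. In Dex against Veh the split in sign was 6 higher and 24 lower under both scalings, and Serpinf2 passed after quantile normalization (-0.65, adjusted p = 0.0478).

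**Figure D1:**
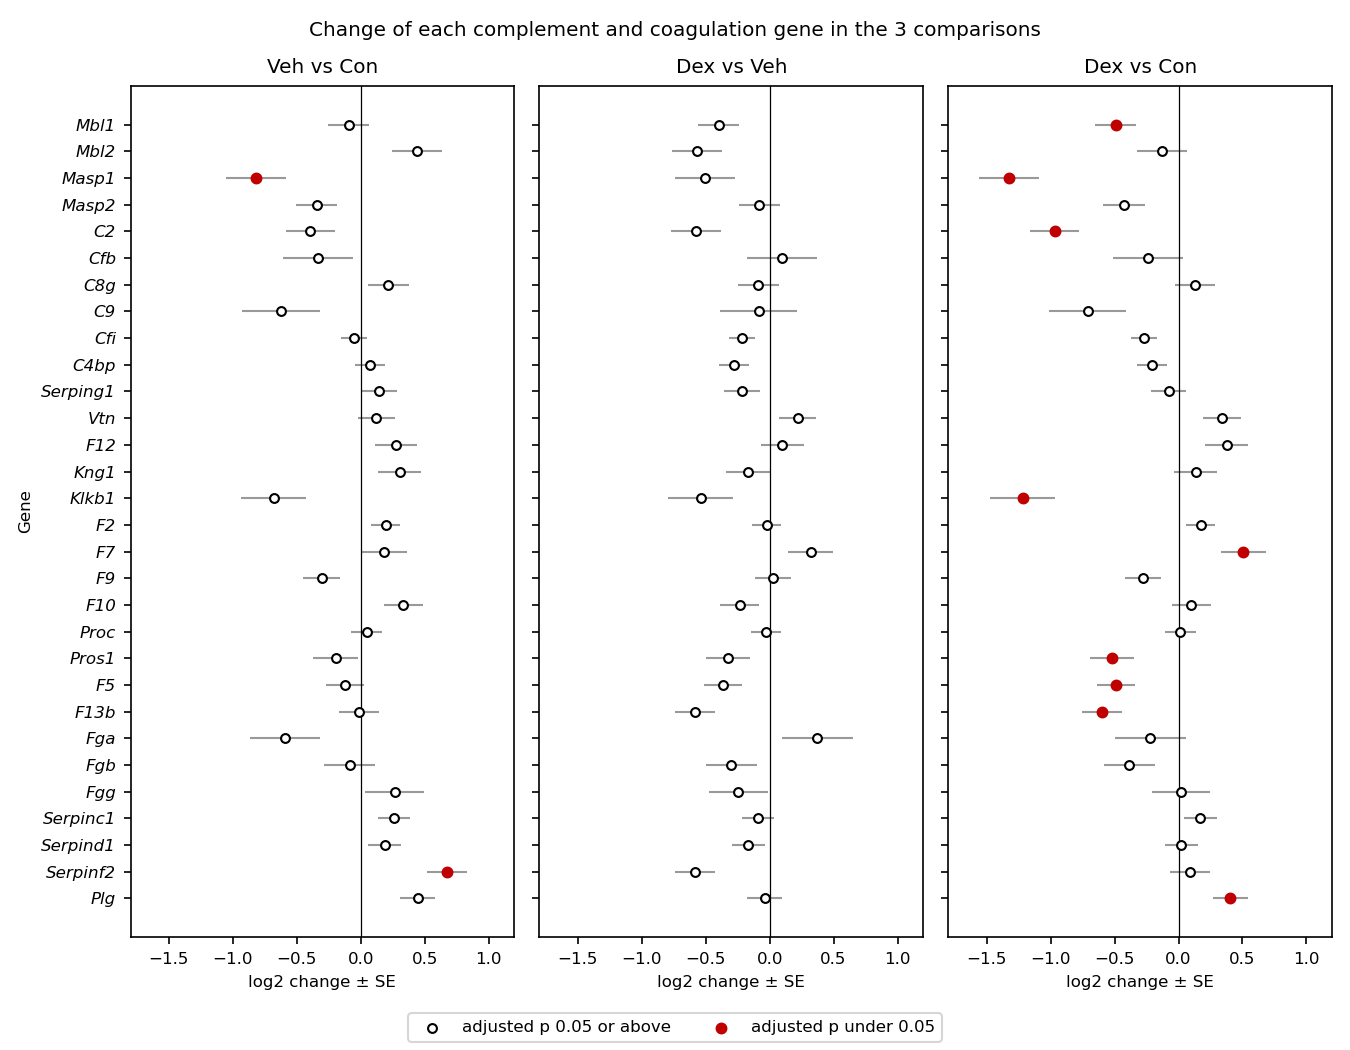
Change of each of the 30 genes in the 3 comparisons. Points are log2 changes of group means (first group minus second, 9 mice each), bars are standard errors, and filled points have an adjusted p under 0.05. In Dex against Con, 7 filled points lie below 0 and 2 above, and in Dex against Veh none is filled while 24 of 30 points lie below 0.

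The complement arm had 12 tested genes. Of these, 3 fell in Dex against Con (median change of the 12 -0.25, 10 lower in sign), 1 fell in Veh against Con (median -0.07) and none passed in Dex against Veh (median -0.22, 10 lower in sign). The coagulation and fibrinolysis arm had 18 tested genes, of which 4 fell and 2 rose in Dex against Con (median 0.02), 1 rose in Veh against Con (median 0.19) and none passed in Dex against Veh (median -0.17, 14 lower in sign). Beside these stand the 16.9%, 3.56% and 0.231% of all genes that passed in Dex against Con, Veh against Con and Dex against Veh. After quantile normalization 6 of the 12 complement genes and 5 of the 18 others were called lower in Dex against Con and none higher (10.2% of all genes called), with medians of -0.42 and -0.21. For Veh against Con it left 0 calls in the complement arm (median -0.16) and 1 lower in the other (median -0.0039), beside 1.29% of all genes. The difference between the arms was not tested.

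In the lectin pathway, sugar patterns on microbes are bound by mannose-binding lectins, encoded by Mbl1 and Mbl2, and the bound lectins activate the proteases encoded by Masp1 and Masp2. The promoters of the lectin genes are shown because these genes are partners in the correlations given further on and share a run of 13 bases. Both sequences are the 250 bases before the RefSeq start in GRCm38.p6, 5′ to 3′ on the gene's strand, with the shared run in capitals.
Mbl1, chr14:41151206-41151455, plus strand: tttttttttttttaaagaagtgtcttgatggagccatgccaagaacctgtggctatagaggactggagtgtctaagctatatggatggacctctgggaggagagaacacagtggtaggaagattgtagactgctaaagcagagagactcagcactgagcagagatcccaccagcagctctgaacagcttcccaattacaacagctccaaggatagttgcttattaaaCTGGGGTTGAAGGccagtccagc
Mbl2, chr19:30232678-30232927, plus strand: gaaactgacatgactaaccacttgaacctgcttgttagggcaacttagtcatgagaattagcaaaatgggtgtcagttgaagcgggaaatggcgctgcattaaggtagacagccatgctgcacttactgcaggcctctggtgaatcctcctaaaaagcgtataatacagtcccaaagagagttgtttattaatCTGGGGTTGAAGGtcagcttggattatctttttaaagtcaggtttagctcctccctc
The run CTGGGGTTGAAGG begins 23 bases before the start in Mbl1 and 57 before it in Mbl2. It was found in 3 of 32851 mouse promoters of 300 bases (250 before and 50 after the start, both strands searched), and the other one is that of Slc25a53. The run was taken from Mbl1 and Mbl2, so their own matches were given in advance. A match is a description and not a binding site.

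Masp1 had the steepest fall of the 30 genes. Its intensity was 159.6 to 243.2 in Con (median 196.1), 55.9 to 181.3 in Veh (median 113.3) and 32.8 to 179.5 in Dex (median 82). Every Veh and every Dex mouse lay below the median Con mouse, 6 Veh and 8 Dex mice lay below the lowest Con mouse, and Dex 6 was the 1 Dex mouse that overlapped Con. The change was -0.82 ± 0.23 in Veh against Con (adjusted p = 0.0429) and -1.32 ± 0.23 in Dex against Con (adjusted p = 6.78e-04). In Dex against Veh it was -0.50 ± 0.23, which did not pass (adjusted p = 0.294), and -0.28 without Dex 1, 2 and 3. These 3 mice were picked for having stood apart from the other Dex mice in earlier results of these data. Fits without them are therefore no independent check. For Masp1, Dex 2 was the lowest (32.8), while Dex 1 and Dex 3 (65.2 and 94.7) lay among the other Dex mice (63.7 to 179.5). The fall in Dex against Con passed in all 27 fits that leave out a mouse. That in Veh against Con passed in 12 of them, and the 15 others, without any of Con 1 to 9 or Veh 1, 2, 4, 5, 6 or 7, gave adjusted p-values of 0.0501 to 0.0983. With that of beta-actin (3' over 5') as a covariate, the Veh change was -0.77 (adjusted p = 0.177), and after quantile normalization -0.63 (adjusted p = 0.120).

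Masp2, the protease that cuts C4 and C2, ran from 154.2 to 266.2 in Con (median 208.3), 117.6 to 219.8 in Veh (median 171.9) and 104.9 to 224.5 in Dex (median 142.8). The groups overlapped, and the change in Dex against Con was -0.43 ± 0.16 (adjusted p = 0.0652). With a mouse left out it could pass, as without Dex 5 (-0.50, adjusted p = 0.0378).

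Of the lectin genes, Mbl1 passed in Dex against Con and Mbl2 in no comparison. Mbl1 ran from 340.9 to 534.2 in Con (median 406.6), 276.5 to 462.4 in Veh (median 402.4) and 197.4 to 504.4 in Dex (median 245.2). In Dex, 6 of 9 mice lay below the lowest Con mouse, while Dex 7, the highest, lay within the Con range. The change was -0.49 ± 0.16 in Dex against Con (adjusted p = 0.0346), -0.40 ± 0.16 in Dex against Veh (adjusted p = 0.223) and -0.09 ± 0.16 in Veh against Con (adjusted p = 0.741). The call against Con was lost without any of Con 1, 3, 6 or 9 or Dex 2, 3, 4, 5 or 6 (adjusted p = 0.0503 to 0.0711 in those 9 fits).

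Mbl2 ran from 548.3 to 776 in Con (median 627.7), 578.6 to 1618 in Veh (median 810.6) and 229.7 to 950.5 in Dex (median 613.2). Veh 2 was the highest mouse and Dex 5 the lowest, and 6 Veh mice lay above the highest Con mouse. No comparison of Mbl2 passed: the change was 0.44 ± 0.20 in Veh against Con (adjusted p = 0.173), -0.57 ± 0.20 in Dex against Veh (adjusted p = 0.162) and -0.13 ± 0.20 in Dex against Con (adjusted p = 0.690). Whether Mbl1 and Mbl2 differ in their change was not tested.

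C2, the protease part of the classical and lectin C3 convertase, fell in Dex against Con with no overlap between the groups. The share of all 5200 tested genes without such overlap is not given here. Its intensity was 275.3 to 601.5 in Con (median 324.4), 163 to 412 in Veh (median 281.3) and 106.5 to 268.4 in Dex (median 178.2). All 9 Dex mice were below the lowest Con mouse and below the median Veh mouse. The change was -0.97 ± 0.19 in Dex against Con (adjusted p = 0.00172), -0.58 ± 0.19 in Dex against Veh (adjusted p = 0.144) and -0.39 ± 0.19 in Veh against Con (adjusted p = 0.210). The fall against Con passed in all 27 fits that leave out a mouse and in the 10 other settings tried. C4b encodes the partner of C2 in the convertase, but its probe is shared with C4a and cannot tell these genes apart. That probe had group medians of 4914, 5343 and 4933, and its change in Dex against Con was -0.18 ± 0.15 (adjusted p = 0.401).

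**Figure D2:**
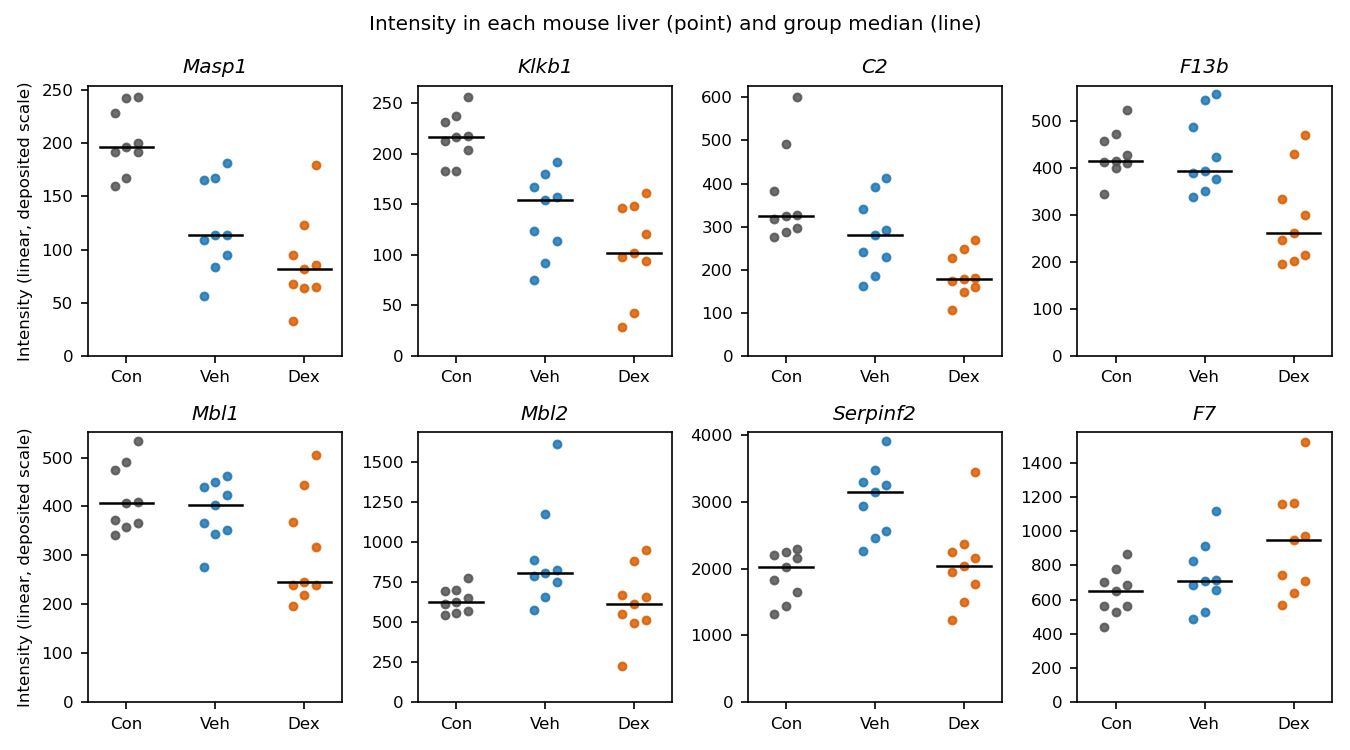
Intensity (linear, as deposited) of 8 of the genes in each mouse, with 1 point per mouse and a line at the median of each group of 9. For C2 and Klkb1 every Dex mouse lies below every Con mouse (share over all genes not given), and for Serpinf2 the Veh mice (2268 to 3899) lie above most of both other groups.

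In the other complement pathways no gene passed in any comparison with the deposited scaling and all mice. Cfb, which encodes factor B of the alternative pathway, was dim, with group medians of 27.9, 24.8 and 26.3, and a change of -0.24 ± 0.27 in Dex against Con (adjusted p = 0.581). Its second tested probe gave -0.41 ± 0.43 (adjusted p = 0.541). C9, whose product forms the ring of the membrane attack complex, had medians of 2854 in Con, 1966 in Veh and 1305 in Dex. It spread more widely than any other gene on the list in Dex (SD 0.88 on the log2 scale), from 730 in Dex 2 to 4006 in Dex 5. Its change of -0.71 ± 0.30 in Dex against Con did not pass (adjusted p = 0.104), but after quantile normalization it was -0.95 and passed (adjusted p = 0.0491). Without Dex 5 the change of C9 was -0.88 and passed too (adjusted p = 0.0429). C8g, a subunit of C8, had medians of 3156, 4484 and 3838 and a change of 0.13 ± 0.16 (adjusted p = 0.610).

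The complement regulators were Cfi (factor I, which cuts C3b and C4b), C4bp (its cofactor for C4b), Serping1 (the C1 inhibitor) and Vtn (vitronectin, which binds the terminal complex). None passed with the deposited scaling and all mice. Changes in Dex against Con then ran from -0.27 for Cfi (± 0.10, adjusted p = 0.0675) to 0.34 for Vtn (± 0.15, adjusted p = 0.105). In that comparison Cfi passed without Con 4, Dex 2 or Dex 4 (adjusted p = 0.0420 to 0.0493). Vtn passed without Dex 8 (0.43, adjusted p = 0.0258). After quantile normalization Cfi (-0.51, adjusted p = 8.75e-04), C4bp (-0.45, adjusted p = 0.0184) and Serping1 (-0.39, adjusted p = 0.0177) passed in Dex against Con. Vtn did not, with a change of -0.0084 (adjusted p = 0.964). For C4bp, all 9 Dex mice lay below the median Veh mouse, with medians of 2181, 2398 and 1824 in the Con, Veh and Dex groups and a change in Dex against Veh of -0.28 ± 0.12 (adjusted p = 0.248).

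The contact system begins with factor XII (F12), plasma prekallikrein (Klkb1) and kininogen (Kng1), from which kallikrein frees bradykinin. Klkb1 fell in Dex against Con, and the groups did not overlap, again without the share over all genes. Its intensity was 182.6 to 255.6 in Con (median 216.2), 75.5 to 192.1 in Veh (median 154.2) and 28.2 to 161.2 in Dex (median 101.8). The highest Dex mouse, Dex 6, was below the lowest Con mouse, and 8 of 9 Veh mice were too. The change was -1.22 ± 0.25 in Dex against Con (adjusted p = 0.00246), with a pass in all 27 fits that leave out a mouse. In Veh against Con it was -0.68 ± 0.25 and did not pass (adjusted p = 0.106), but it passed without Dex 2 (adjusted p = 0.0465), without Dex 1, 2 and 3 (adjusted p = 0.0148) and with only Veh and Con in the fit (adjusted p = 0.0149). In Dex against Veh it was -0.54 ± 0.25 (adjusted p = 0.302), and -0.073 without Dex 1, 2 and 3 (adjusted p = 0.903). Without these 3 mice the change in Dex against Con was -0.75 (adjusted p = 0.0165).

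The other contact genes were above 0 in Dex against Con with the deposited scaling, and Kng1 was below it (-0.18) after quantile normalization. F12 had medians of 1354, 1686 and 1948 and a change of 0.38 ± 0.17 in Dex against Con (adjusted p = 0.118). Kng1 had medians of 6185, 7313 and 6351 and a change of 0.13 ± 0.17 (adjusted p = 0.630). Neither passed in any comparison.

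The vitamin K dependent factors are proteases and cofactors whose glutamates are carboxylated, so that they bind membranes through calcium. Of the 6 tested, 1 rose and 1 fell in Dex against Con with the deposited scaling. F7, which starts coagulation with tissue factor, ran from 443.3 to 864.9 in Con (median 649.5), 485.9 to 1120 in Veh (median 710.2) and 569.5 to 1523 in Dex (median 948.9). In Dex, 5 mice lay above the highest Con mouse and 2 below the Con median, with Dex 2 the highest. The change was 0.51 ± 0.18 in Dex against Con (adjusted p = 0.0478), 0.32 ± 0.18 in Dex against Veh (adjusted p = 0.383) and 0.19 ± 0.18 in Veh against Con (adjusted p = 0.534).

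This rise rests on 1 probe. The second probe of F7 had medians of 406.2, 421.4 and 383.6 and a change of -0.06 ± 0.16 in Dex against Con (adjusted p = 0.818). The call was also lost in 17 of the 27 fits that leave out a mouse (Con 2, 3, 5, 6, 7, 8 or 9, Veh 1, 4, 5, 6 or 8, or Dex 2, 3, 4, 5 or 9), with adjusted p-values of 0.0520 to 0.109, while the change stayed between 0.41 and 0.59 in all 27.

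Pros1 encodes protein S, the cofactor of activated protein C that helps switch off coagulation. It ran from 99.2 to 154.7 in Con (median 117.9), 69.6 to 145.3 in Veh (median 108.6) and 47 to 114.6 in Dex (median 82.7). All 9 Dex mice lay below the median Con mouse and 6 below the lowest. The change was -0.52 ± 0.17 in Dex against Con (adjusted p = 0.0371), -0.33 ± 0.17 in Dex against Veh (adjusted p = 0.366) and -0.20 ± 0.17 in Veh against Con (adjusted p = 0.496). Without Con 1, 3, 6 or 7, or Dex 1, 2, 5 or 7, the call was lost (adjusted p = 0.0570 to 0.0806 in those 8 fits). Protein C itself, the product of Proc, had medians of 2391, 2440 and 2449 and a change of 0.01 ± 0.12 in Dex against Con (adjusted p = 0.947).

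F10, the protease that cuts prothrombin, had probes that disagreed. Its brighter probe ran from 864.1 to 1459 in Con (median 1041), 1149 to 1633 in Veh (median 1319) and 771.5 to 1799.7 in Dex (median 1251). All 9 Veh mice lay above the median Con mouse, and the Dex mice spread around both. The change was 0.33 ± 0.15 in Veh against Con (adjusted p = 0.184), -0.23 ± 0.15 in Dex against Veh (adjusted p = 0.464) and 0.10 ± 0.15 in Dex against Con (adjusted p = 0.691). The dimmer probe, with medians of 150.1, 117.9 and 103.3, was lower in Dex than in Con (-0.56 ± 0.19, adjusted p = 0.0375). F10 is not counted among the genes that changed, since the brighter probe stands for it. For the remaining factors of this class, F2 (prothrombin) had a change of 0.17 ± 0.11 in Dex against Con (adjusted p = 0.301) and F9 one of -0.28 ± 0.14 (adjusted p = 0.180). After quantile normalization F9 passed in Dex against Con (-0.48, adjusted p = 0.0248) and in Veh against Con (-0.52, adjusted p = 0.0451).

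F5 encodes factor V, the cofactor of factor Xa in the complex that makes thrombin. Its intensity was 469.5 to 764.5 in Con (median 574.9), 284.6 to 893 in Veh (median 535.3) and 339.6 to 486.8 in Dex (median 414.6). In Dex, 8 of 9 mice lay below the lowest Con mouse, whereas Veh spread to both sides of Con, with Veh 7 the lowest and Veh 8 the highest of all 27. The change was -0.49 ± 0.15 in Dex against Con (adjusted p = 0.0263), -0.36 ± 0.15 in Dex against Veh (adjusted p = 0.233) and -0.12 ± 0.15 in Veh against Con (adjusted p = 0.632). Without Con 7, the highest Con mouse, the adjusted p was 0.0573. It passed in the other 26 fits that leave out a mouse.

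F13b, the carrier subunit of the crosslinking enzyme factor XIII, fell in Dex against Con and came closest to the threshold in Dex against Veh. It ran from 343.6 to 523.1 in Con (median 414), 339.2 to 556.3 in Veh (median 392.7) and 194.7 to 470.3 in Dex (median 261.8). In Dex, 7 mice lay below every Con and every Veh mouse, and 2 lay within the range of both, with Dex 8 the highest. The change was -0.60 ± 0.15 in Dex against Con (adjusted p = 0.0105), -0.58 ± 0.15 in Dex against Veh (adjusted p = 0.0762) and -0.01 ± 0.15 in Veh against Con (adjusted p = 0.966). Against Veh it passed without Dex 6 or Dex 8 (adjusted p = 0.0284 and 0.0267). Against Con it passed in all 27 fits that leave out a mouse, but not without Dex 1, 2 and 3 together (-0.41, adjusted p = 0.105).

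Without those 3 mice, 4 of the 30 genes differed between Dex and Con (Masp1 -1.10, Klkb1 -0.75, C2 -0.79 and Fgb -0.63, all lower), beside 6.21% of all genes. The calls of F13b, F5, Mbl1, Pros1, F7 and Plg were lost in that fit, which has 6 Dex mice, and Fgb was gained. Of the lost calls, the change was -0.52 for F5 and -0.58 for Pros1, no smaller than with all mice, and -0.41 for F13b, -0.40 for Mbl1, 0.41 for F7 and 0.34 for Plg. For Masp1, C2 and Klkb1 the fall in Dex against Con passed under every alternative setting tried.

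Fibrinogen is assembled from an alpha, a beta and a gamma chain, encoded by Fga, Fgb and Fgg, which lie next to each other on chromosome 3. Their promoters are shown because the chains enter the correlations below. Each is the 250 bases before the RefSeq start (GRCm38.p6, 5′ to 3′ on the gene's strand), with matches to 4 searched motifs in capitals, on either strand.
Fga, chr3:83025903-83026152, plus strand: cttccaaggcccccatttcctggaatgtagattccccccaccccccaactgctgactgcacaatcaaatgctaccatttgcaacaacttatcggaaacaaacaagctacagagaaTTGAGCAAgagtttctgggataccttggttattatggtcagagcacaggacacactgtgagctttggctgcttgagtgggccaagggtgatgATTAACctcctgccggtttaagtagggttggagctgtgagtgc
Fgb, chr3:83049864-83050113, minus strand: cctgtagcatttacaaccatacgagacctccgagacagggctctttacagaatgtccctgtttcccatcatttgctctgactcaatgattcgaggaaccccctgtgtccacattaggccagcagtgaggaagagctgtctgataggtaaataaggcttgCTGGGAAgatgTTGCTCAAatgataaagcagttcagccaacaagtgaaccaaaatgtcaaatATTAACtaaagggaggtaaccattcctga
Fgg, chr3:83007474-83007723, plus strand: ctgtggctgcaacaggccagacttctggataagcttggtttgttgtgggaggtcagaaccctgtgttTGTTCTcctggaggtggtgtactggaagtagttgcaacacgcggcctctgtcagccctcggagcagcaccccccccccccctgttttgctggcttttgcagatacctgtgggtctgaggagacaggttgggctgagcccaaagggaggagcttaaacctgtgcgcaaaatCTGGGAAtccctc
The motifs were GTTAAT, the core of HNF1 sites, CTGGGAA, known from IL-6 response elements of acute phase genes, TTGCNNAA for C/EBP factors and TGTTCT, from the glucocorticoid response element. GTTAAT began 43 bases before the start in Fga and 29 in Fgb, TTGCNNAA 135 in Fga and 80 in Fgb, CTGGGAA 91 in Fgb and 13 in Fgg, and TGTTCT 183 in Fgg. Promoters of 300 bases were at hand for 22 of the 30 genes. GTTAAT was in 6 of these (27.3%, beside 7.10% of all 32851 promoters), CTGGGAA in 5 (22.7%, beside 11.1%), TTGCNNAA in 6 (27.3%, beside 10.8%) and TGTTCT in 11 (50%, beside 19.0%). Apart from Fgg, TGTTCT was in C8g, C9, F10, F12, F13b, F2, Mbl1, Mbl2, Serpinf2 and Vtn. These are letter matches, with no test, and say nothing of factor binding.

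None of the fibrinogen chains passed in any comparison with the deposited scaling and all mice. Fga ran from 525.4 to 2888 in Con (median 1549.9), 550.4 to 1769 in Veh (median 1025) and 919.5 to 1968 in Dex (median 1225). The Con mice alone covered the whole range of the other groups, from Con 5 to Con 2 (SD 0.82). The change was -0.59 ± 0.28 in Veh against Con (adjusted p = 0.188), 0.37 ± 0.28 in Dex against Veh (adjusted p = 0.515) and -0.22 ± 0.28 in Dex against Con (adjusted p = 0.617).

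Fgb ran from 1713 to 3260.0 in Con (median 2101), 1268 to 3375 in Veh (median 1894) and 968.9 to 3793 in Dex (median 1446). In Dex, 7 mice lay below the lowest Con mouse while Dex 2 was the highest of all 27. The change was -0.39 ± 0.20 in Dex against Con (adjusted p = 0.183), -0.30 ± 0.20 in Dex against Veh (adjusted p = 0.472) and -0.09 ± 0.20 in Veh against Con (adjusted p = 0.813). Without Dex 2 the change in Dex against Con passed (adjusted p = 0.0402), and so it did after quantile normalization (-0.65, adjusted p = 0.0334).

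Fgg ran from 2525 to 4574 in Con (median 3253), 2684 to 7350.4 in Veh (median 3948) and 2114 to 10706 in Dex (median 2992). Veh 2 and Dex 2 were the highest mice, and the groups overlapped throughout. The change was 0.26 ± 0.23 in Veh against Con (adjusted p = 0.488), -0.24 ± 0.23 in Dex against Veh (adjusted p = 0.619) and 0.02 ± 0.23 in Dex against Con (adjusted p = 0.963). With the beta-actin covariate the sign turned in Dex against Veh for Fgg (0.13) and Fgb (0.022), and in Veh against Con for Fgg (-0.050).

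Across mice, the beta and gamma chains varied together. Correlations were taken over the 27 mice after each group's mean log2 level was subtracted. The 4 pairs were those of the fibrinogen chains and that of Mbl1 and Mbl2. Two-sided permutation p-values (100000 resamples) were adjusted over the 4. Values were shuffled across groups, so these p-values take the spread as equal in all groups. It was not: the SD of Fgg was 0.29 in Con and 0.73 in Dex, that of Mbl2 0.17 and 0.60, and that of Fga 0.82 and 0.36. For Fgb and Fgg, Pearson's r was 0.74 (permutation p = 4.0e-05, adjusted 1.6e-04) and Spearman's rho 0.54 (permutation p = 0.00439, adjusted 0.0176). Within groups r was 0.69 (Con), 0.66 (Veh) and 0.80 (Dex), and without Veh 2 and Dex 2, the mice farthest out, it was 0.47.

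Fga and Fgb had an r of 0.45 (permutation p = 0.0194, adjusted 0.0259) and a rho of 0.47 (permutation p = 0.0135, adjusted 0.0270). Within the Con, Veh and Dex groups r was 0.51, 0.62 and 0.37, and it was 0.54 without Con 2 and Con 5, the farthest from the median. Without Con 6 the unadjusted permutation p was 0.0503. Fga and Fgg had an r of 0.19 (permutation p = 0.336, adjusted 0.336) and a rho of 0.21 (permutation p = 0.302, adjusted 0.302), with -0.05, 0.47 and 0.26 within Con, Veh and Dex and 0.31 without Con 2 and Con 5. The differences between these correlations were not tested.

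**Figure D3:**
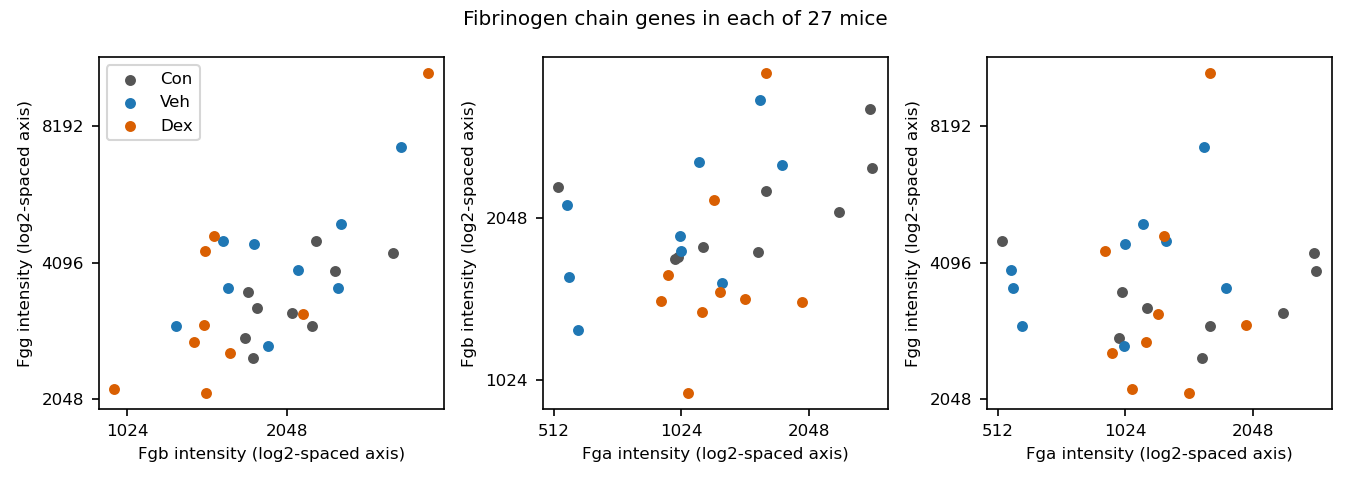
Intensities of the fibrinogen chain genes against each other, 1 point per mouse, coloured by group, on log2-spaced axes. Fgb and Fgg rise together in the left panel, with Veh 2 and Dex 2 at its upper end, while Fga and Fgg in the right panel do not (r = 0.74 and 0.19 after subtraction of the group means).

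Mbl1 and Mbl2 had an r of 0.46 (permutation p = 0.0172, adjusted 0.0259) and a rho of 0.40 (permutation p = 0.0402, adjusted 0.0536). Within the Con, Veh and Dex groups r was 0.20, 0.19 and 0.61, and without Dex 7 and Dex 8 it was 0.43. The relation rests on few mice: without Dex 5 the unadjusted permutation p was 0.132, and without Dex 8 it was 0.0551.

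The inhibitors and fibrinolytic genes lay higher in Veh than in Con in sign for all 4 tested with the deposited scaling (Serpind1 at -0.03 after quantile normalization), and 1 passed. Serpinf2 encodes alpha-2-antiplasmin, the main plasma inhibitor of plasmin. It ran from 1316 to 2298 in Con (median 2026), 2268 to 3899 in Veh (median 3149) and 1230.4 to 3438 in Dex (median 2031). In Veh, 8 of 9 mice lay above the highest Con mouse, and 7 Dex mice lay below the lowest Veh mouse, while Dex 4 was the highest Dex mouse. The change was 0.67 ± 0.16 in Veh against Con (adjusted p = 0.0183), -0.58 ± 0.16 in Dex against Veh (adjusted p = 0.0856) and 0.09 ± 0.16 in Dex against Con (adjusted p = 0.719).

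The rise in Veh passed in all 27 fits that leave out a mouse (adjusted p up to 0.0428). Fitted with the 3' over 5' beta-actin covariate it was 0.62 (adjusted p = 0.108), and after quantile normalization 0.48 (adjusted p = 0.0942). Without Dex 4 or Dex 6 the change in Dex against Veh passed (adjusted p = 0.0466 and 0.0497). A second, dimmer probe went the other way: its medians were 131, 77.2 and 92.7, and its change in Veh against Con was -0.59 ± 0.28 (adjusted p = 0.196).

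Plg encodes plasminogen, the precursor of plasmin. It ran from 8303 to 12136 in Con (median 9967), 9598 to 16150.3 in Veh (median 13597) and 8816 to 20241 in Dex (median 12880.3). In Veh 8 mice and in Dex 6 mice lay above the highest Con mouse. The change was 0.41 ± 0.14 in Dex against Con (adjusted p = 0.0427), 0.44 ± 0.14 in Veh against Con (adjusted p = 0.0619) and -0.04 ± 0.14 in Dex against Veh (adjusted p = 0.913). The direction in Dex against Con turned under quantile normalization, where the change was -0.02 (adjusted p = 0.896).

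As for F7, the call of Plg rests on 1 probe and lay near the threshold. That probe carries the suffix that marks similarity to other transcripts, so the call is uncertain. The second probe, with medians of 5113, 6065 and 5235, had a change of 0.17 ± 0.12 in Dex against Con (adjusted p = 0.332). Leaving out Con 1, 3, 4, 6, 7, 8 or 9, or Dex 1, 2, 4, 5, 7 or 9, ended the call (adjusted p = 0.0539 to 0.0935 in those 13 fits), while the change stayed between 0.33 and 0.48 in all 27. Against Con, Veh passed without Veh 9, Dex 2, Dex 4 or Dex 8 (adjusted p = 0.0236 to 0.0485). Serpinc1 (antithrombin) and Serpind1 (heparin cofactor II), inhibitors of thrombin, passed in no comparison, with changes in Dex against Con of 0.17 ± 0.13 (adjusted p = 0.362) and 0.02 ± 0.13 (adjusted p = 0.931).

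**Figure D4:**
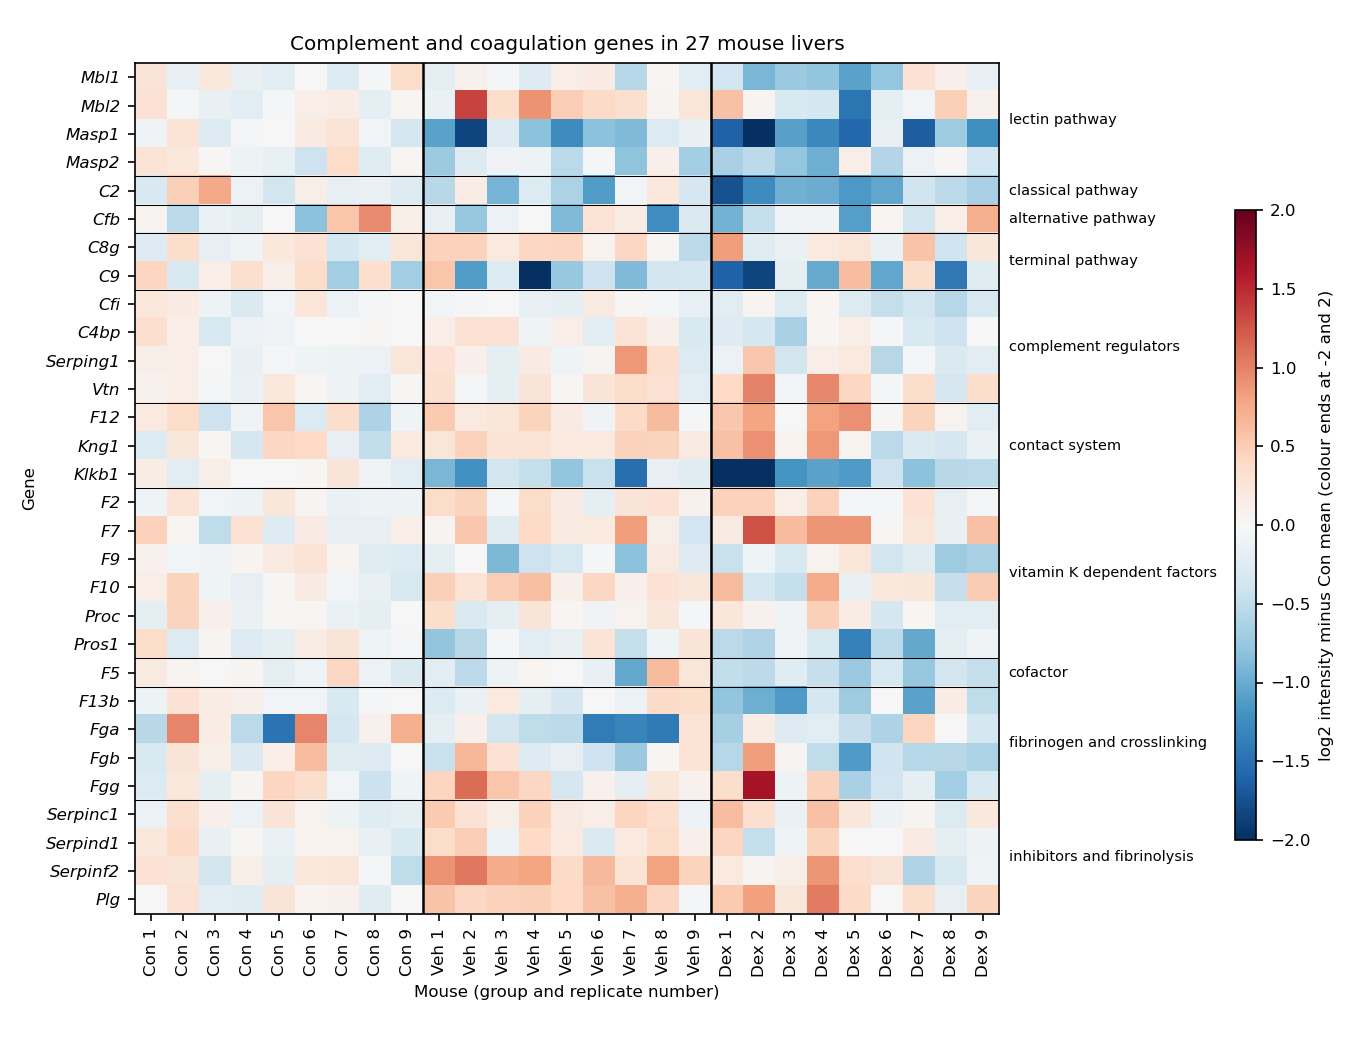
Log2 intensity of the 30 genes (rows, by role) in each of the 27 mice (columns), minus the mean of the 9 Con mice. Blue is below and red above the Con mean, and the colour scale ends at 2 log2 units on either side. Masp1, Klkb1 and C2 are blue in most Dex mice, Serpinf2 is red in the Veh mice, and Fgg is red in Veh 2 and Dex 2.

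Mice within a group were not alike, and the median spread was lowest in Con and highest in Dex. The median SD of the 30 genes was 0.219, 0.335 and 0.418 in Con, Veh and Dex on the log2 scale, beside 0.361, 0.452 and 0.551 for all genes. The widest were C9 and Klkb1 in Dex (SD 0.88 and 0.86) and Fga in Con (0.82). The number of the 30 genes below their Con median was 7 to 22 per mouse in Con (median 13), 7 to 17 in Veh (median 13) and 13 to 24 in Dex (median 16), so the groups overlapped. The mean log2 level of the 30 genes, relative to Con, ran from -0.12 to 0.17 among Con mice, from -0.12 to 0.10 among Veh mice, and from -0.30 in Dex 8 to 0.02 in Dex 4. The other 8 Dex mice ran from -0.30 to -0.15.

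The median change differed with the brightness of the probe over all genes. In Dex against Con, the median change of all genes was -0.30, -0.32, -0.28, -0.23 and 0.07 in 5 equal classes of mean log2 intensity, from the dimmest to the brightest. For Veh against Con it was -0.34, -0.32, -0.23, -0.15 and 0.12. Of the 30 genes, 25 were in the brightest class, where 4 were called lower and 2 higher in Dex against Con, and where 8.27% of all genes were called lower and 11.8% higher. The median change of these 25 was 0.14 in Veh against Con, 0.015 in Dex against Con and -0.17 in Dex against Veh. For all genes of the class it was 0.12, 0.07 and -0.06. Masp1, Klkb1 and Masp2 were in the next class down, where 18.8% of all genes were called lower, Pros1 in the middle class and Cfb in the dimmest. The changes of Masp1 (-1.32) and Klkb1 (-1.22) were farther from 0 than the median of their class (-0.23). They are named here because they passed, so this is a description and not a test. Intensities of different probes do not rank genes by abundance.

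**Figure D5:**
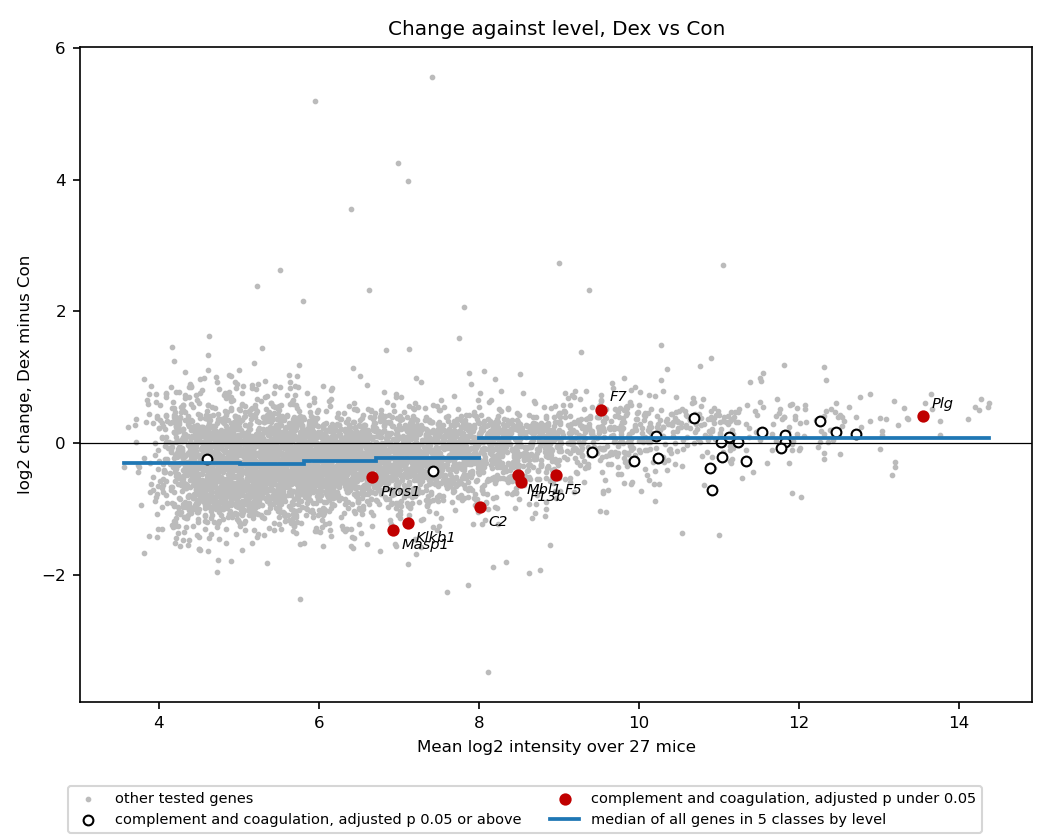
Change in Dex against Con (log2, y axis) against the mean log2 intensity over 27 mice (x axis) for 5200 genes. Grey points are other genes, open circles the complement and coagulation genes that did not pass, filled circles the 9 that passed, and blue lines the median change of each class by brightness (-0.30 in the dimmest, 0.07 in the brightest). Masp1, C2 and Klkb1 lie below the line of their class by the most among the 30.

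Of 49 other genes of these pathways, 21 were tested, 15 were too dim and 13 had no probe of their own named. In Dex against Veh none passed, and the median change of the 21 was -0.09. For Veh against Con 1 passed, lower (median -0.01), and in Dex against Con 1 was higher and 4 lower (median -0.10), beside 3.56% and 16.9% of all genes. F2r, the thrombin receptor PAR1, was the gene lower in Veh, with medians of 133.7 in Con, 65.6 in Veh and 57.4 in Dex. Its change was -1.25 ± 0.23 in Veh against Con (adjusted p = 0.00402) and -1.30 ± 0.23 in Dex against Con (adjusted p = 6.78e-04).

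The other genes lower in Dex than in Con were C1ra, a protease of the first complement component (-0.69 ± 0.16, adjusted p = 0.00523), the factor H relative Cfhr2 (-1.06 ± 0.32, adjusted p = 0.0236) and Ggcx (-0.79 ± 0.28, adjusted p = 0.0464). Ggcx encodes the carboxylase that acts on the vitamin K dependent factors. Mcfd2 was the gene that was higher (0.50 ± 0.13, adjusted p = 0.0125), and its product helps carry factors V and VIII out of the endoplasmic reticulum. The probes of C1ra and Cfhr2 carry the same suffix as that of Plg, so these genes are uncertain too. After quantile normalization F2r, C1ra and Cfhr2 passed in Dex against Con, while Ggcx (-0.54, adjusted p = 0.115) and Mcfd2 (0.27, adjusted p = 0.113) did not.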

How the data were processed

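Expression was measured in 27 mouse livers on Affymetrix arrays. Per the labels, RNA was extracted with Trizol and RNeasy kits. The deposited values are linear intensities, already scaled by the authors (trimmed mean of every array 100.1 to 100.2, with 2% cut at each end). The sources used here do not give the software or scaling steps. Deposited values were floored at 2.6 (percentile 10 of positive values), then taken to log2. Probes above their array's median in at least 9 arrays were tested, control probes (66) left out, which gave 6784 probes. Group means were fitted over all arrays (R 4.3.3, limma 3.58.1, lmFit and eBayes with trend, 24 residual degrees of freedom, Benjamini-Hochberg over all probes, threshold 0.05, two-sided). A gene is its brightest tested probe with a single symbol. All 38 such probes of the list matched RefSeq. The fit was tested on simulated data. Alternatives were scaling, floor, filter, replicate block, mice left out, beta-actin ratio and trend. Members, gene lists and motifs were chosen with earlier results of these data known. Genes given in full are those past the threshold, the 6 with the smallest p per comparison and the fibrinogen chains. Array number and signal over the floor limit precision.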

Additional observations from a re-analysis of the deposited data

Results flagged for a closer look

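In 5 of the 90 groups of 9 mice (30 genes in 3 groups), 1 mouse lay far from the other 8, where chance alone marks about 1 group in 20. Values are log2 intensities. Fgg was 13.39 in Dex 2, where the other Dex mice ran from 11.05 to 12.19. Mbl2 was 7.84 in Dex 5, below the 8.96 to 9.89 of the other Dex mice. C8g was 11.19 in Veh 9 (other Veh mice 11.74 to 12.18), and Plg in the same mouse was 13.23 (others 13.66 to 13.98). Proc was 11.66 in Con 2 (other Con mice 11.02 to 11.32).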

How the results depend on the processing

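Probes called in Dex against Veh (18) became 7 without the filter on dim probes, 3 with the replicate block, 1 with the beta-actin ratio, 5 without the trend, 1 without Dex 1, 2 and 3 and 1 with only these groups in the fit (4 to 124 when a mouse was left out). In Veh against Con (262) they became 86 after quantile normalization, 116 without the filter, 33 with the beta-actin ratio, 453 without Dex 1, 2 and 3 and 656 with only these groups (85 to 586). In Dex against Con (1115) they became 662 after quantile normalization and 405 without Dex 1, 2 and 3 (785 to 1488). Listed genes called in Dex against Veh (0) became 1 after quantile normalization (0 to 2 when a mouse was left out: 1 without Dex 4, 2 without Dex 6, 1 without Dex 8). In Veh against Con (2) they became 1 after quantile normalization, 1 without the filter, 0 with the beta-actin ratio, 1 without the trend, 4 without Dex 1, 2 and 3 and 4 with only these groups (1 to 4; 1 without any Con mouse or Veh 1, 2, 4, 5, 6 or 7, 4 without Dex 2). In Dex against Con (9) they became 5 without the filter and 4 without Dex 1, 2 and 3 (5 to 11; 5 without Con 3, 6 or 7). Quantile normalization moved the median of the list to -0.080 in Veh against Con and -0.27 in Dex against Con, and turned Plg in Dex against Con to -0.024. Without the filter 12422 probes were adjusted over in place of 6784, and some settings hold fewer mice; otherwise the cause was not tested. Replicate numbers were not taken to pair the mice. Of 27 arrays, 4 correlated best with an array of their own number in another group, a count that cannot exclude pairing. With the replicate block, 8 listed genes passed in Dex against Con, Plg being lost (adjusted p = 0.0534), and 2 in Veh against Con. Signal over the floor limits Cfb.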
